A study of Mus musculus with 6 samples.

Results

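The tricarboxylic acid (TCA) cycle enzymes described here were 9 genes, Cs, Idh3a, Idh3b, Idh3g, Ogdh, Sucla2, Suclg1, Fh1 and Mdh2. They were taken as every probe set of the expression arrays whose annotation carried 1 of these symbols, which gave 16 probe sets of the 20380 with a single gene symbol and 9 genes of 12393. A probe set is a group of short probes that reads 1 transcript or a few, and its signal is a linear intensity. The samples were murine multiple myeloma cells, malignant plasma cells from bone marrow, kept for 12 h in medium without serum. Of the 6 arrays, 3 held control cells without IGF-1 and 3 held cells given 100 ng/ml IGF-1, insulin-like growth factor 1, a survival and growth factor for such cells. Serum was absent from both groups, and no label names the mouse strain or the cell line. Nothing in the labels tells whether the 3 replicates of a group came from different cultures or mice. The p-values then cover only the spread among these arrays, part of which may be technical.

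The TCA cycle runs in the mitochondrial matrix. Citrate synthase joins acetyl-CoA to oxaloacetate, a chain of dehydrogenases then releases carbon dioxide and passes electrons to the respiratory chain, and malate dehydrogenase restores oxaloacetate. Growing cells also draw on the cycle for building blocks, such as citrate for lipids and oxaloacetate for aspartate. In antibody-secreting plasma cells it further serves the energy demand of protein production.

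The arrays had been scaled by the authors to a common trimmed mean, 150.1 in each, so a difference is relative to the total RNA signal. Median signals lay between 49.96 and 55.36, and ratios of 3′ to 5′ signal, a sign of RNA integrity, were 0.748 to 0.843 for Gapdh, with overlapping groups. The plasma cell markers were present, 8 of 8 above the signal filter, and their summed signal was 12651 to 13764 in control arrays and 11760 to 12250 in IGF-1 arrays. Slamf7 and Tnfrsf17 were the 2 of these 8 that fell. Over all genes tested, 8.05% were lower and 7.05% higher, shares that also stand beside the marker counts that follow. Markers of B and T cells were dim, with summed signals of 88 to 165 and 92 to 131, and none of them was at 0. Markers of neutrophils gave summed signals of 25113 to 29987 in control arrays and 23301 to 25932 in IGF-1 arrays, with 1 of 9 lower, 0 higher and none at 0. Markers of macrophages and monocytes gave 5527 to 7235 and 4755 to 6467, with 3 of 6 tested lower, 1 higher and none at 0. The samples therefore held transcripts known from myeloid cells as well as from plasma cells, and their part in the values below was not tested. In such bulk samples, fewer cells of a type and less RNA per cell cannot be told apart.

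None of the 9 genes changed past the threshold at its brightest probe set. At the threshold of 0.05 for limma's adjusted p, 0 of 9 were called higher and 0 lower, and 1 of 9, Cs, had an unadjusted p under 0.05. Over all 6895 genes tested, 15.1% were called in either direction (7.05% higher and 8.05% lower), and 30.5% had an unadjusted p under 0.05. The differences of the 9 genes, IGF-1 minus control on the log2 scale, ran from -0.24 for Fh1 to 0.32 for Cs, with a median of 0.10, against a median of -0.01 over all genes. Of these differences 6 were above 0 and 3 below. The median size without sign was 0.13 for the members and 0.18 for all genes. The smallest difference called in any gene was 0.28, and the median standard error was 0.11 for the members and 0.13 for all genes. With 9 genes and this background, 0 calls do not set the enzymes apart from other genes.

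**Figure D1:**
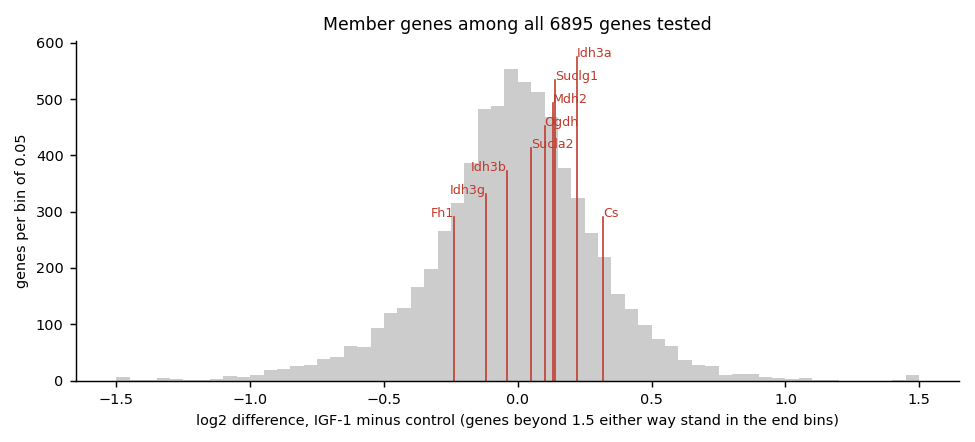
Histogram of the log2 difference (IGF-1 minus control) of all 6895 genes tested, in bins of 0.05, with red lines at the 9 TCA cycle enzymes (line height carries no value). The members stand between -0.24 (Fh1) and 0.32 (Cs), inside the bulk of the distribution.

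Counted by probe set, 14 of the 16 were bright enough to be tested and 2, both of Idh3a, were not. Of the 14, 1 rose (a Cs probe set) and 1 fell (an Mdh2 probe set), 14.3% in all. Over all 11313 probe sets 15.1% were called, 6.82% higher and 8.28% lower. The groups did not overlap for 4 of the 14 probe sets, 2 with every IGF-1 array above every control array and 2 with every one below. Over all probe sets these shares were 16.1% and 18.7%. The members' share of calls was thus near the background. By genes, 1 of 9 (Cs) had every IGF-1 array above every control array and 1 of 9 (Idh3g) every one below, against 17.1% and 18.2% of all genes. Averaged over the 9 genes, the log2 deviation from the control mean was 0.13, 0.02 and -0.15 in control arrays 1, 2 and 3 and 0.16, -0.01 and 0.04 in IGF-1 arrays 1, 2 and 3. The lowest of these means was in a control array and the highest in an IGF-1 array, and the groups overlapped.

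**Figure D2:**
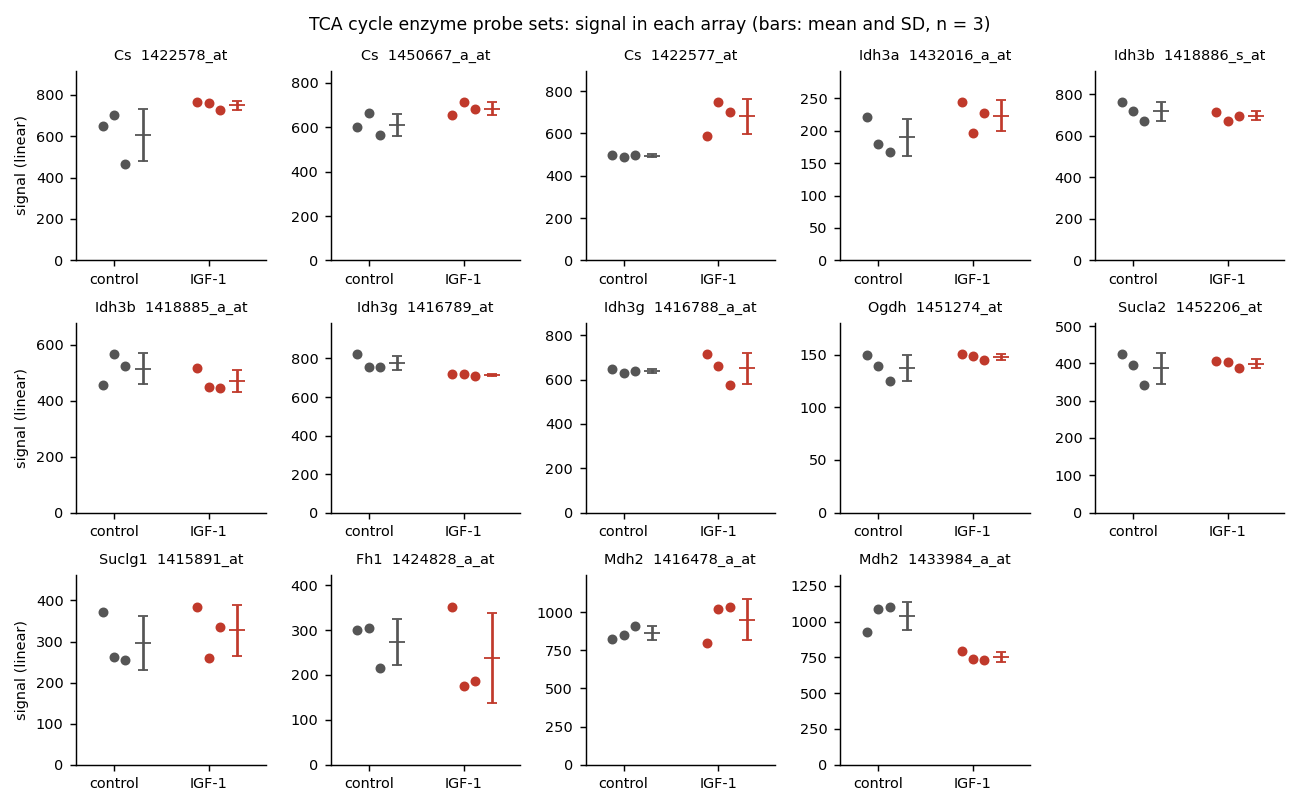
Signal (linear, from 0) of each of the 14 tested probe sets in the 3 control arrays (grey) and the 3 IGF-1 arrays (red), with the mean and SD of each group beside the points. The groups are apart for Cs 1422578_at and 1422577_at, Idh3g 1416789_at and Mdh2 1433984_a_at, and they overlap in the other 10 panels.

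Cs encodes citrate synthase, which makes citrate at the entry of the cycle. The gene lies on chromosome 10 at 128337727 to 128362482 in assembly GRCm38.p6. At the brightest probe set of each gene it had the largest log2 difference of the 9, and it is the 1 member with 3 tested probe sets. The brightest, 1422578_at, gave signals of 649, 701 and 464 in control arrays and 764, 758 and 725 in IGF-1 arrays. Every IGF-1 array was above every control array, though control 3 stood below the other controls. The group means were 605 ± 125 and 749 ± 21.3 (SD, n = 3), a log2 difference of 0.32 ± 0.14 (SE) with a 95% confidence interval of 0.02 to 0.63 (adjusted p = 0.15). Without control 3 the difference was 0.15.

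The probe set 1422577_at of Cs rose with IGF-1. Its signals were 498, 489 and 498 in control arrays and 589.8, 747 and 703 in IGF-1 arrays. The control arrays were nearly level, and the lowest IGF-1 array was clear of them. Means went from 495 ± 5.17 to 680.0 ± 81.1, 1.37-fold, with a log2 difference of 0.44 ± 0.10 (adjusted p = 0.019). Leaving out control 2, IGF-1 2 or IGF-1 3 ended the call (adjusted p = 0.062, 0.081 and 0.067).

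The last Cs probe set, 1450667_a_at, read 602, 664 and 564 in control arrays and 656, 713 and 683 in IGF-1 arrays. Its groups overlapped, since control 2 exceeded IGF-1 1. Its log2 difference was 0.16 ± 0.09, with an interval of -0.05 to 0.37 (adjusted p = 0.28). All 3 probe sets of Cs thus had positive differences, and 1 of the 3 passed. Within arrays, the brightest probe set did not differ in response from 1450667_a_at (0.16 ± 0.14, interval -0.16 to 0.48, adjusted p = 0.68) or from 1422577_at (-0.12 ± 0.18, interval -0.52 to 0.28, adjusted p = 0.84) past the threshold. When the probe sets of each gene were averaged instead, Cs passed, at 0.31 (adjusted p = 0.047), as the 1 member of 9, where 8.05% of all genes were called higher.

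The upstream sequence of Cs is shown because Cs and Mdh2 were the members with a called probe set. It covers the 250 bases before the RefSeq start, chr10:128337477-128337726 on the plus strand of GRCm38.p6, with GC boxes (GGGCGG) and CCAAT letters, on either strand and where complete, in capitals.
Cs: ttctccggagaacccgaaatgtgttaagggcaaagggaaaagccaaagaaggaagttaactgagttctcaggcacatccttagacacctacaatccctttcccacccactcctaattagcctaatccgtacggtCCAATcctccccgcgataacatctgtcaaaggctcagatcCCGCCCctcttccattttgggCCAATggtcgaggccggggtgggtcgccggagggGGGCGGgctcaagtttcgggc
The window holds 2 GC boxes and 2 CCAAT matches, and 55.2% of its bases are G or C.

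Idh3a, Idh3b and Idh3g encode the catalytic and the regulatory subunits of the NAD-dependent isocitrate dehydrogenase, an early carbon dioxide releasing step of the cycle. None of the 3 passed the test, and their differences were not of 1 sign. They lie on chromosomes 9, 2 and X.

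Idh3a, the catalytic subunit, read 222, 179.9 and 168 in control arrays and 244, 197 and 228 in IGF-1 arrays at 1432016_a_at. The groups overlapped, because control 1 was above IGF-1 2. The difference was 0.22 ± 0.13, with an interval of -0.06 to 0.51 (adjusted p = 0.28). Its other probe sets lay below the signal filter of 53.61 and were not tested. Of these, 1422500_at was at 27.1, 31.1 and 32.2 in control arrays and at 33, 44.4 and 38.1 in IGF-1 arrays. All IGF-1 values were above all control values there. The dimmest, 1422501_s_at, was between 3.25 and 15.6 in all 6 arrays, with overlapping groups.

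Idh3b was measured by 2 probe sets, neither of which passed. At 1418886_s_at it read 761, 720.2 and 671 in control arrays and 716, 673 and 696 in IGF-1 arrays. The IGF-1 values lay inside the control range, below control 1 and control 2 and above control 3. The difference was -0.04 ± 0.09 with an interval of -0.24 to 0.15 (adjusted p = 0.79). At 1418885_a_at it read 456, 566 and 524 against 516, 451 and 446, a difference of -0.12 ± 0.11 with an interval of -0.36 to 0.12 (adjusted p = 0.49). Control 1 was the lowest control here and the highest at the other probe set, so the order of arrays was not shared. The response did not differ between the probe sets past the threshold (0.08 ± 0.15, adjusted p = 0.87). The suffix _s_at of the brighter one is given to probes that can read more than 1 gene.

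Idh3g read 821, 757 and 755 in control arrays and 717, 719 and 709 in IGF-1 arrays at its brightest probe set, 1416789_at. Every IGF-1 array was below every control array, yet the shift was small, from 778 ± 37.9 to 715 ± 5.65. The difference was -0.12 ± 0.09, with an interval of -0.31 to 0.07 (adjusted p = 0.4). The other probe set, 1416788_a_at, read 649, 629.7 and 639 against 714, 663 and 576, with IGF-1 arrays on both sides of the controls. Its difference was 0.02 ± 0.10 (adjusted p = 0.92), and the probe sets differed in response by -0.14 ± 0.13 (adjusted p = 0.7).

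Ogdh encodes the first component (E1) of the 2-oxoglutarate dehydrogenase complex, which makes succinyl-CoA. It was measured by 1451274_at, at 149.7, 139 and 125 in control arrays and 150.4, 149 and 145 in IGF-1 arrays. The IGF-1 arrays were close together at the upper end of the control range. The difference was 0.10 ± 0.11, with an interval of -0.15 to 0.34 (adjusted p = 0.6).

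Sucla2 and Suclg1 encode subunits of succinate-CoA ligase, which turns succinyl-CoA into succinate and makes a nucleoside triphosphate. Sucla2 is the beta subunit of the ATP-forming enzyme, and Suclg1 is the alpha subunit shared with the GTP-forming one. Sucla2 read 424, 395 and 342 in control arrays and 407, 405 and 387 in IGF-1 arrays at 1452206_at. The IGF-1 values lay inside the control range, with a difference of 0.05 ± 0.10 and an interval of -0.18 to 0.28 (adjusted p = 0.79). Without control 3 the difference was -0.03.

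Suclg1 read 372, 262 and 255 in control arrays and 385, 261 and 335 in IGF-1 arrays at 1415891_at. Control 1, IGF-1 1 and IGF-1 3 were high, and the other 3 arrays were low, so the spread lay within the groups. The difference was 0.14 ± 0.17, with an interval of -0.23 to 0.51 (adjusted p = 0.63), and it ran from 0.02 without IGF-1 1 to 0.30 without control 1. Suclg2, the beta subunit of the GTP-forming enzyme and not a member, was at 206 ± 8.7 in control and 198 ± 12.9 in IGF-1 arrays (-0.06 ± 0.10, adjusted p = 0.76).

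Fh1 encodes fumarase, which hydrates fumarate to malate. On the log2 scale it had the largest standard error of the 9 members at their brightest probe sets. It read 301, 304 and 215 in control arrays and 352, 175 and 186 in IGF-1 arrays at 1424828_a_at. IGF-1 1 was the highest of the 6 arrays and IGF-1 2 the lowest, so the IGF-1 group enclosed all controls. The difference was -0.24 ± 0.23, with an interval of -0.75 to 0.27 (adjusted p = 0.53). Its lower end goes well past the smallest difference called in any gene. The intervals of Cs, Idh3a, Idh3g, Ogdh, Suclg1 and Mdh2 at their brightest probe sets also reached past that size. The Fh1 value moved with single arrays, to -0.54 (adjusted p = 0.058) without IGF-1 1 and to -0.07 and -0.11 without IGF-1 2 and IGF-1 3.

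Mdh2 encodes the mitochondrial malate dehydrogenase, which closes the cycle. The gene lies on chromosome 5 at 135778649 to 135790386 in GRCm38.p6. Its 2 probe sets had differences of opposite sign. The brighter, 1416478_a_at, read 825, 853 and 912 in control arrays and 796, 1023 and 1036 in IGF-1 arrays. IGF-1 1 was below all controls and the other IGF-1 arrays were above them. The difference was 0.13 ± 0.11, with an interval of -0.12 to 0.38 (adjusted p = 0.48). The mean of both probe sets gave -0.16 (adjusted p = 0.22).

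The other Mdh2 probe set, 1433984_a_at, fell with IGF-1. It read 924, 1090.0 and 1104 in control arrays and 791, 737 and 731 in IGF-1 arrays. All IGF-1 arrays were below all controls, with means of 1039 ± 100.3 and 753 ± 33. The difference was -0.45 ± 0.10, with an interval of -0.67 to -0.24 (adjusted p = 0.013). The call ended when IGF-1 2 was left out (adjusted p = 0.053). It also ended with scaling to the hybridization controls (-0.17, adjusted p = 0.36).

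The response of the brighter Mdh2 probe set minus that of the other was tested within arrays. The log2 ratio of the brighter to the other was -0.16, -0.35 and -0.27 in control arrays 1, 2 and 3 and 0.01, 0.46 and 0.50 in IGF-1 arrays 1, 2 and 3. The ratio was higher in every IGF-1 array than in every control array, by 0.58 ± 0.16 with an interval of 0.23 to 0.93. Over all 3470 such pairs of probe sets this did not pass (limma's adjusted p = 0.15), and 0.461% of the pairs did. An exact two-sided permutation test over the arrays gave p = 0.1, the smallest that 3 against 3 arrays allow. Of 2325 genes with more than 1 tested probe set, 35.3% had probe sets with differences of both signs, and 4 genes had calls in both directions. The pair was singled out after its values were seen. The suffix _a_at of both probe sets marks probes that can read several transcripts of 1 gene.

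**Figure D3:**
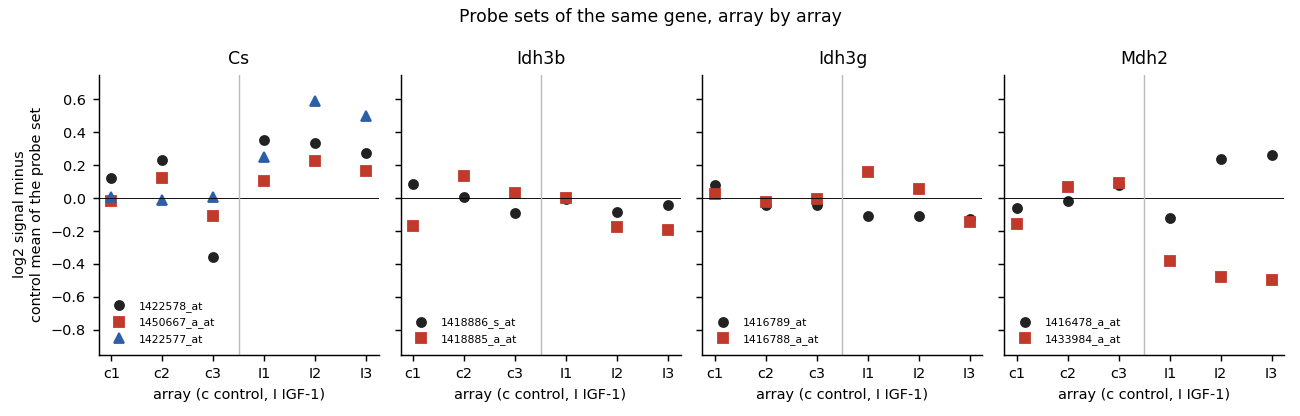
Log2 signal of each array minus the control mean of the same probe set, for the 4 members with more than 1 tested probe set (c1 to c3 control, I1 to I3 IGF-1). The points of the Cs probe sets lie above 0 in all IGF-1 arrays, while those of the Mdh2 probe sets part, with log2 differences of 0.13 and -0.45.

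The upstream window of Mdh2, chr5:135778399-135778648 on the plus strand of GRCm38.p6, is printed with the same letters in capitals for comparison with that of Cs.
Mdh2: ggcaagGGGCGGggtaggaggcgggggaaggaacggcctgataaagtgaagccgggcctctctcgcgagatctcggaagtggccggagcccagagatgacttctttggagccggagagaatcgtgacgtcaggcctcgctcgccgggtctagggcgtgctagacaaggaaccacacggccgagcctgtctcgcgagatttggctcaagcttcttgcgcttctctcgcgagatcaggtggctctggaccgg
It holds 1 GC box and 0 CCAAT matches, with 63.2% G or C, against a median of 52.4% over all windows of the RefSeq table. Windows of 8 of the 9 members were in that table, Idh3a being the other, and Ogdh has 6 overlapping or neighbouring ones, of which any was counted. Over both strands, GGGCGG was present for 5 of 8 members (Cs, Ogdh, Sucla2, Fh1 and Mdh2) and for 35.4% of all 27025 genes. CCAAT was present for 4 of 8 (Cs, Idh3b, Ogdh and Fh1) and for 37.5% of genes. The cyclic AMP response letters TGACGTCA were present for Ogdh and Mdh2 and in 1.77% of genes, the ETS letters CCGGAAG for Idh3g and in 7.83%, and the E-box CACGTG for Ogdh and in 6.86%. The YY1 letters AAGATGGCG were present for Idh3g and in 0.71% of genes. The NRF1 site (0.877% of genes) and the letters TCAAGGTCA of the estrogen-related receptors (0.422%) were in 0 of 8 windows. These motifs do not contain each other, a match is a description of the letters alone, and no motif was shared by all members.

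The rest of the cycle was measured by 7 further genes, of which 1 rose, 0 fell and 6 did not pass, with a median difference of 0.09. Over all genes tested, 7.05% were called higher and 8.05% lower, so 1 call among 7 does not set these enzymes apart. Sdhb, the iron-sulfur subunit of succinate dehydrogenase, which oxidises succinate to fumarate, read 1414, 1435 and 1273 in control arrays and 1786, 1686 and 1711 in IGF-1 arrays. All IGF-1 arrays were above all controls, with a difference of 0.33 ± 0.09 (adjusted p = 0.029). Leaving out control 3, or each IGF-1 array in turn, ended that call (adjusted p = 0.079 to 0.089), as did no filter (adjusted p = 0.058) and no intensity trend (adjusted p = 0.063). The other subunits of the same enzyme did not pass. Sdha was at -0.13 ± 0.09 (adjusted p = 0.39), with all IGF-1 arrays below all controls. Sdhc was at 0.21 ± 0.11 (adjusted p = 0.24) and Sdhd at 0.14 ± 0.14 (adjusted p = 0.56), both with overlapping groups. This Sdhc probe set carries the suffix _x_at, given to probes that can also read other sequences. The other tested Sdhc probe set was at 0.29 ± 0.11 (adjusted p = 0.1), with all IGF-1 arrays above all controls. Those of Sdha and Sdhd were at -0.04 and -0.01, with overlapping groups. Dlst and Dld, the other components of the 2-oxoglutarate dehydrogenase complex, were at 0.09 ± 0.11 and -0.09 ± 0.10, beside 0.10 for Ogdh. Aconitase 2 was not analysed here.

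Enzymes outside the mitochondrial cycle that share a reaction type with a member were also set beside them. Idh1, the cytosolic NADP-dependent isocitrate dehydrogenase, read 195, 263 and 313 in control arrays and 161, 234 and 84.5 in IGF-1 arrays at its brightest probe set. Its groups overlapped and it did not pass (-0.71 ± 0.28, adjusted p = 0.12). The value was -1.01 without IGF-1 2, which passed (adjusted p = 0.04), and -0.35 without IGF-1 3 (adjusted p = 0.31). Its other probe set fell from 133 ± 18.4 to 67.9 ± 9.51 (-0.83 ± 0.14, adjusted p = 0.0051). The mean of both passed too (-0.77, adjusted p = 0.023). Both probe sets of Idh1 carry the suffix _s_at, given to probes that can read more than 1 gene. Idh2, the mitochondrial NADP-dependent form, was at 887 ± 48.8 and 944 ± 88.8 (0.09 ± 0.10, adjusted p = 0.61). Mdh1, the cytosolic malate dehydrogenase, was at 0.16 ± 0.12 (adjusted p = 0.4), and its 2 other tested probe sets were also above 0 and did not pass.

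The wider list held 40 genes, made up of the remaining cycle enzymes, pyruvate entry, mitochondrial carriers, feeding or draining enzymes and the 4 cytosolic or NADP-dependent counterparts (Idh1, Idh2, Mdh1 and Aco1). Of these, 30 were named on the array and 26 were bright enough to test. Among the 26, 4 genes rose, 1 fell and the other 21 stayed short of the threshold, with a median difference of 0.13, where 7.05% of all genes were called higher and 8.05% lower. Only 2 rose without control 3 or any single IGF-1 array, and 0 fell without control 2 or control 3. Calls over all probe sets also became fewer there. Without control 3 or a single IGF-1 array, the higher ones went from 772 to between 406 and 531. The lower ones went from 937 to 519 without control 2 and to 606 without control 3. Beside Sdhb, the genes that rose were Acly, Got2 and Pck2. Acly, which splits citrate in the cytosol for lipid synthesis, rose from 472 ± 32 to 814 ± 45 (0.77 ± 0.09, adjusted p = 0.00091), and 3 of 3 tested probe sets passed. Citrate, its substrate, is the product of Cs. Got2, the mitochondrial aspartate aminotransferase, which turns oxaloacetate into aspartate, rose from 956 ± 73.5 to 1293 ± 40.2 (0.43 ± 0.09, adjusted p = 0.012). Its second probe set rose by 0.71 ± 0.09 (adjusted p = 0.0012).

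Pck2, the mitochondrial enzyme that converts oxaloacetate to phosphoenolpyruvate, rose from 443 ± 33.8 to 580.2 ± 4.18 (0.38 ± 0.09, adjusted p = 0.022). The other probe set of Pck2 was at -0.21 ± 0.15 (adjusted p = 0.39), and the mean of both did not pass (0.08, adjusted p = 0.62). Leaving out any array other than control 1 also ended the Pck2 call (adjusted p = 0.054 to 0.071). The gene that fell was Pdk1, a kinase that switches off pyruvate dehydrogenase. It read 345, 374 and 407 in control arrays and 296, 208 and 277 in IGF-1 arrays, with no overlap (-0.52 ± 0.13, adjusted p = 0.028), and its other probe set fell by 0.44 (adjusted p = 0.038). At the brighter probe set the call ended when control 2, control 3 or IGF-1 2 was left out (adjusted p = 0.081 to 0.088), and with no filter (adjusted p = 0.077). Scaling to the hybridization controls ended it too (-0.24, adjusted p = 0.3). At the other it ended without any array but IGF-1 1 (adjusted p = 0.06 to 0.13), with no filter (adjusted p = 0.086), with no intensity trend (adjusted p = 0.052) and on the scale of the hybridization controls (-0.17, adjusted p = 0.46). The subunits of pyruvate dehydrogenase itself, Pdha1, Pdhb and Dlat, did not pass, at 0.07, 0.19 and 0.08. Glud1, glutamate dehydrogenase, was at -0.21 ± 0.09 (adjusted p = 0.16), while its dimmer probe set, named here after its value was seen, fell by 0.44 (adjusted p = 0.031), a call that held when control 3 or IGF-1 1 was left out and ended without each of the other arrays (adjusted p = 0.08 to 0.11). That call also ended with no filter (adjusted p = 0.069) and on the scale of the hybridization controls (-0.18, adjusted p = 0.4).

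**Figure D4:**
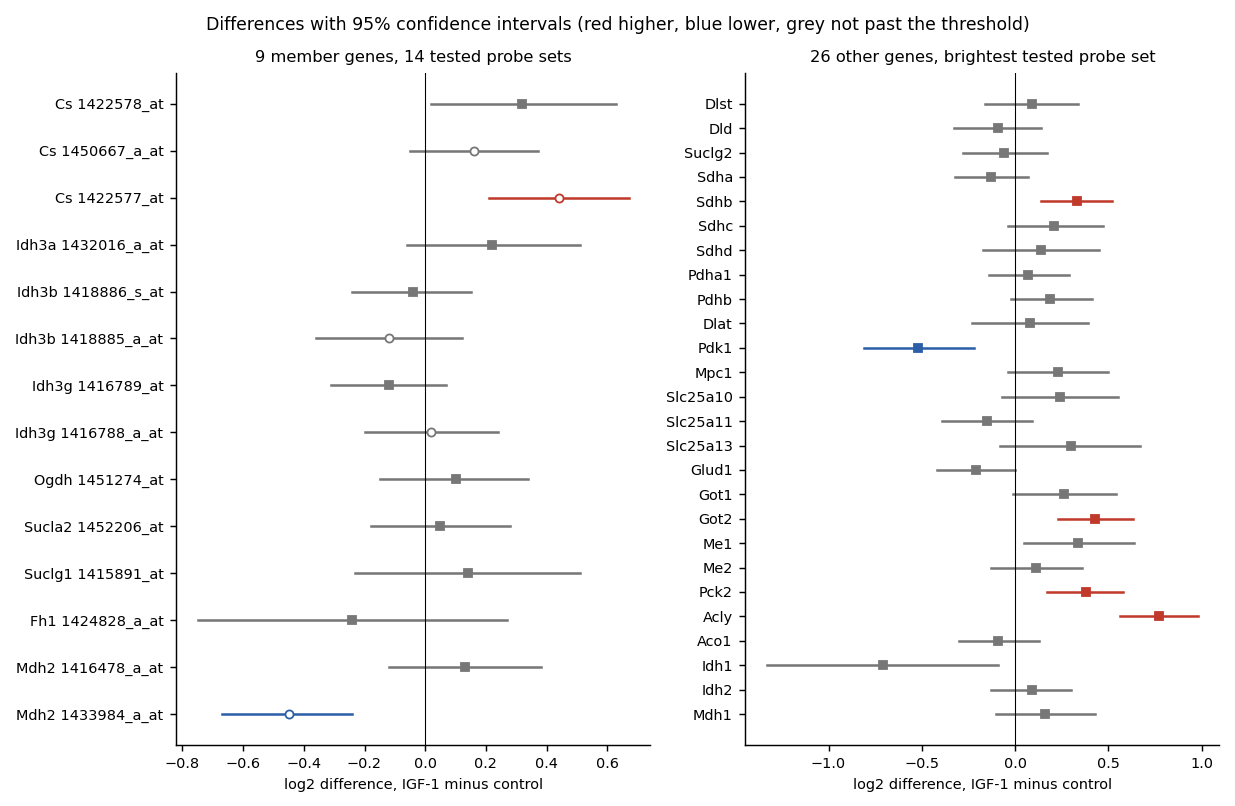
Log2 differences, IGF-1 minus control, with 95% confidence intervals, for the 14 tested probe sets of the 9 TCA cycle enzymes (left) and the 26 tested genes of the wider list (right). Squares are the brightest tested probe set of a gene and open circles the others; red (higher) and blue (lower) passed the threshold, which on the left are Cs 1422577_at and Mdh2 1433984_a_at and on the right Sdhb, Got2, Pck2, Acly and Pdk1.

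Directions among the members depend on the scaling of the arrays. The hybridization controls are bacterial and phage transcripts added in fixed amounts to the hybridization mix of each array. They do not measure the RNA content of the cells. Their mean log2 signal was 7.83 to 8.10 in control arrays and 7.60 to 7.74 in IGF-1 arrays. With arrays scaled to these controls, the median of all genes moved from -0.01 to 0.26 and that of the 9 members from 0.10 to 0.36. Both medians moved up together. On that scale 3 of 9 members were called higher, Cs (0.61, adjusted p = 0.0045), Idh3a (0.49, adjusted p = 0.035) and Mdh2 at its brighter probe set (0.42, adjusted p = 0.036), where 24.5% of all genes were higher and 2.04% lower. Idh3b, Idh3g and Fh1 turned positive, at 0.24, 0.17 and 0.03, without passing.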

How the data were processed

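Transcript levels were measured on 6 Affymetrix arrays, 3 control and 3 IGF-1, grouped by the sample titles. The values are linear intensities per probe set, deposited for 22690 probe sets. The submitters' processing notes list MAS5 and GCOS, without version. Trimmed means of these intensities (lowest and highest 2% left out) were equal in all arrays, so the deposited intensities had been scaled. Scaling of this kind takes total RNA signal as equal between groups. Their number limits the precision.

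The 64 control probe sets were left out. A pseudocount of 15.57, the 25th percentile of the whole table, was added before taking log2, which understates changes of dim probe sets. Probe sets with a mean signal above 53.61, the median, were tested (11313 probe sets, 6895 genes) by a two-sided moderated test in limma 3.58.1 (R 4.3.3; eBayes with trend), adjusted over all probe sets by Benjamini-Hochberg at a threshold of 0.05. Differences carry standard errors and 95% confidence intervals, and signals the SD of 3 arrays. The brightest tested probe set stood for its gene. The text names all members with every probe set, every gene of the wider list past the threshold, and the direct counterparts of members. Members and lists were chosen with earlier results of these data known, and the within-array test of probe set pairs was chosen after seeing the values. Names come from the platform annotation, and upstream sequences and positions from RefSeq (GRCm38.p6), matched by symbol. The fit was tested on simulated data. Tables were read with Python 3.11.15 and pandas 2.3.3. Neither labels nor files name a batch.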

Additional observations from a re-analysis of the deposited data

How the results depend on the processing

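The count of 0 members called lower held under all alternatives run, and that of 0 called higher under all but 2, scaling to the hybridization controls (3) and the mean of probe sets per gene (1). Over all probe sets, 772 were higher and 937 lower; these became 448 and 498 without a filter, 2740 and 246 with scaling to the hybridization controls, and 406 to 659 and 491 to 792 with 1 array left out, lowest without IGF-1 2 for both. Of the wider list, 4 higher and 1 lower became 12 and 0 with that scaling, where 24.5% of all genes were higher and 2.04% lower. With 1 array left out they became 2 to 4 and 0 to 1. The count of lower calls was 0 without a filter and 3 with the mean of probe sets. Scaling to the hybridization controls turned Idh3b (0.24 and 0.16 at its probe sets), Idh3g (0.17), Fh1 (0.03), Dld (0.18), Suclg2 (0.21) and Sdha (0.16) positive, and the mean of probe sets turned Mdh2 to -0.16. Of differences near 0, Idh3g 1416788_a_at went to -0.00 with quantile normalization and ran from -0.05 to 0.10 with 1 array left out, as did Sucla2 (-0.03 to 0.12), Dlst (-0.01 to 0.16) and Sdhd (-0.04 to 0.25). The causes were not tested, and a fit with fewer arrays is also less precise. The labels give both groups numbers 1 to 3 but do not say what they share. Deviations of same-numbered arrays correlated at 0.12, -0.03 and 0.13, against -0.15 to 0.03 for arrays of unlike number. The values of 0.12 and 0.13 were the highest of all, yet weak, and do not settle a pairing. As the labels name none, the numbers were not taken as pairs. With the replicate block, 754 probe sets were higher and 978 lower, and 0 members and 4 and 1 genes of the wider list were called. Control 2 correlated better with IGF-1 3 (0.03) than with IGF-1 2. Brightness limits what can be said of Idh3a, with 2 probe sets under the filter.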
